A study of Mus musculus with 12 samples.

Results

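The proteasome subunit genes are the 34 genes with these symbols in the deposited table, of the 38739 symbols that it lists. They were chosen by symbol and not by any measured value, and all 34 passed the filter on low values, beside 9994 genes tested in all. They comprise 13 genes of the 20S core (Psma1 to Psma7, Psmb2, Psmb3, Psmb4, Psmb6, Psmb7 and Psmb10), 7 of the base (Psmc1 to Psmc5, Psmd1 and Psmd4) and 7 of the lid (Psmd3, Psmd7, Psmd8, Psmd11, Psmd12, Psmd13 and Psmd14). The other 7 are 4 assembly chaperone genes (Psmd5, Psmd9, Psmg3 and Psmg4) and 3 genes of activators and an inhibitor (Psme3, Psme4 and Psmf1). Further subunits, among them Psmb5, Psmb8 and Psmb9, were not analysed here.

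RNA from bone marrow-derived macrophages (BMDMs) of mice in the C57BL/6J background was sequenced in 12 samples. These were wild-type (WT) and cGAS-/- cells, each left untreated (UT) or stimulated with LPS, with 3 samples per group. The labels give LPS at 100 ng/mL for 1 h and the methods 150 ng/mL for 24 h, so the dose and the time of these samples are uncertain. The methods give male mice aged 8 weeks. The labels' extraction step speaks of neutrophils, and the replicates are described as technical, so the p-values below measure the spread between these samples, which need not be that between mice. cGAS is the sensor of cytosolic DNA that makes cGAMP, and LPS is the bacterial cell wall component sensed by TLR4.

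The proteasome degrades proteins tagged with ubiquitin. Its 20S core is a barrel of α and β rings, and the proteolytic sites lie inside it on some of the β subunits. The 19S regulator caps the barrel, with a base whose ATPases unfold the substrate and a lid that holds the deubiquitinase Psmd14. In macrophages and other immune cells, β subunits induced by interferon can replace the constitutive ones to form the immunoproteasome, which is known for making peptides for antigen presentation. Among the genes here, Psmb10 encodes the inducible partner of the constitutive β2 subunit Psmb7.

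The 250 bases before the canonical transcription start were read from GRCm39 for all 34 genes. Those of 4 genes that the named-gene rule chose (Psma6, Psma2, Psmc1 and Psmd14) are shown first, because Psma6 had the largest LPS difference in cGAS-/- cells and the others were among the genes with the smallest p in 1 of the genotypes. Psmd1 and Psmd8 follow, chosen after their values were seen because they went the other way. Each runs 5′ to 3′ on the strand of the gene, in lower case with motif matches in capitals. The capitals mark CCAAT or its reverse complement ATTGG in Psma2, Psmc1 and Psmd14, an NF-κB site in Psma6 and TTCNNNGAA in Psmd1, while Psmd8 holds no match.
Psma6, chr12:55445310-55445559, + strand: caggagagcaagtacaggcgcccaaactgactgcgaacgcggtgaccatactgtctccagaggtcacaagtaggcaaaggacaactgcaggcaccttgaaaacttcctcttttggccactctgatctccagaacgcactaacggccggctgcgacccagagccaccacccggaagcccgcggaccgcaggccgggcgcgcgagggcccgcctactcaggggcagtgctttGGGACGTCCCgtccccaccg
Psma2, chr13:14787554-14787803, + strand: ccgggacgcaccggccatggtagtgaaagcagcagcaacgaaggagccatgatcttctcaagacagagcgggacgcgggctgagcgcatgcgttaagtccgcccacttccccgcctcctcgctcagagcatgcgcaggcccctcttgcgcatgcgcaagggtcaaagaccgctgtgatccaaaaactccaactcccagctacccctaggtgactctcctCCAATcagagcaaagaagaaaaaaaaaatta
Psmc1, chr12:100076154-100076403, + strand: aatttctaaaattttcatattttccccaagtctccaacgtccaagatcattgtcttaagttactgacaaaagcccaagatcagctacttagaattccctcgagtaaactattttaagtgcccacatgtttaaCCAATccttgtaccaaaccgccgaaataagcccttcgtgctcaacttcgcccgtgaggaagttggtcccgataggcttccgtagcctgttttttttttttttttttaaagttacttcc
Psmd14, chr2:61541776-61542025, + strand: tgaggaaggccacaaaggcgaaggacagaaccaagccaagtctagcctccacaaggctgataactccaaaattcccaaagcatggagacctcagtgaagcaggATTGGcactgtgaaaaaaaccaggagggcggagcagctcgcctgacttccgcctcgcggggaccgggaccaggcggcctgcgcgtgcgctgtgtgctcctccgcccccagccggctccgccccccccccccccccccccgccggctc
Psmd1, chr1:85991847-85992096, + strand: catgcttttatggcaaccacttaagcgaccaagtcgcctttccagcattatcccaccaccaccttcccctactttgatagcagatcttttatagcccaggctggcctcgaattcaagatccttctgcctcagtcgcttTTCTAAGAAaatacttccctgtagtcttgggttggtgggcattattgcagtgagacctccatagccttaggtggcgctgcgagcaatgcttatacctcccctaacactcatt
Psmd8, chr7:28880136-28880385, - strand: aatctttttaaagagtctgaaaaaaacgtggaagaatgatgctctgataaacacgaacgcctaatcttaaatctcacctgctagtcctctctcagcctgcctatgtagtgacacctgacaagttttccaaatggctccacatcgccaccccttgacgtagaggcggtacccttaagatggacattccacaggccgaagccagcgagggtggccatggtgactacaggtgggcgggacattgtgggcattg

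The CCAAT box, the letters CCAAT on either strand, stood in 14 of the 34 promoters (41.2%) and in 36.5% of the promoters of all 21738 annotated protein-coding genes. Within the complex it stood in 7 of 13 core genes, 4 of 7 base genes, 2 of 7 lid genes and 0 of 4 chaperone genes. The core of the antioxidant response element, TGACNNNGC, which NFE2L1 and its relatives bind, stood in 4 of 34 (11.8%, against 9.68% of all promoters), namely Psmb6, Psmd7, Psmd12 and Psmd9. The GAS element of STAT factors, TTCNNNGAA, stood in Psmd1 and Psmd3 (5.88%, against 7.69%). The NF-κB site stood in Psma6, Psma7, Psmd11 and Psmd12 (11.8%, against 7.62%). No motif overlapped another in the promoters printed. These are matches of letters, not binding sites, and for Psma6 other annotated transcripts begin farther upstream.

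The deposited values are TPM (a transcript's abundance corrected for its length and for the size of the library) averaged over the transcripts of a symbol, so a level is compared between samples for 1 gene and never between genes. Read depth is not known. Column totals ran from 447189 to 503156 TPM in 11 samples, and the third WT LPS sample had 709802. In that sample the pseudogene Fth-ps3 took 31.75% of the total, and annotated protein-coding genes took 18.5%, against 39.72% to 54.44% in the others. For the fit each sample was therefore scaled by a trimmed mean of log ratios, which gave that sample the factor 0.4149, the first WT LPS sample 0.7705 and the others 0.966 to 1.2368. Cgas read 1.191 to 3.25 TPM in the 6 WT samples and 0.07031 to 0.2905 TPM in the 6 cGAS-/- samples, which matches the labels. The macrophage markers summed to at least 27900 TPM in every sample, with 13 of 15 of them in the table and none at 0 in all samples. The summed B cell markers, 7 of 8 in the table, were 109 to 135 TPM in WT UT, 30.6 to 45.2 in WT LPS, 20.1 to 28.6 in cGAS-/- UT and 3.09 to 8.91 in cGAS-/- LPS, and the proliferation markers Mki67 and Top2a together were 21.7 to 23.9, 0.663 to 1.45, 3.73 to 3.91 and 1.12 to 1.46 TPM in the same order. The B cell sums were mostly Igkc and Ighm, while Cd79a, at 0.132 to 1.55 TPM in WT UT and 1.54 to 2.49 TPM in WT LPS, was called higher with LPS in WT (log2 difference 1.33, adjusted p = 0.0259). The neutrophil markers, 9 of 10 in the table, summed to 139 to 214, 35.9 to 353, 53.3 to 126 and 46.5 to 60.3 TPM in the order of groups given for the B cell markers. Their part in the results below was not tested, and in bulk RNA fewer cells of a type and less RNA per cell cannot be told apart.

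**Figure D1:**
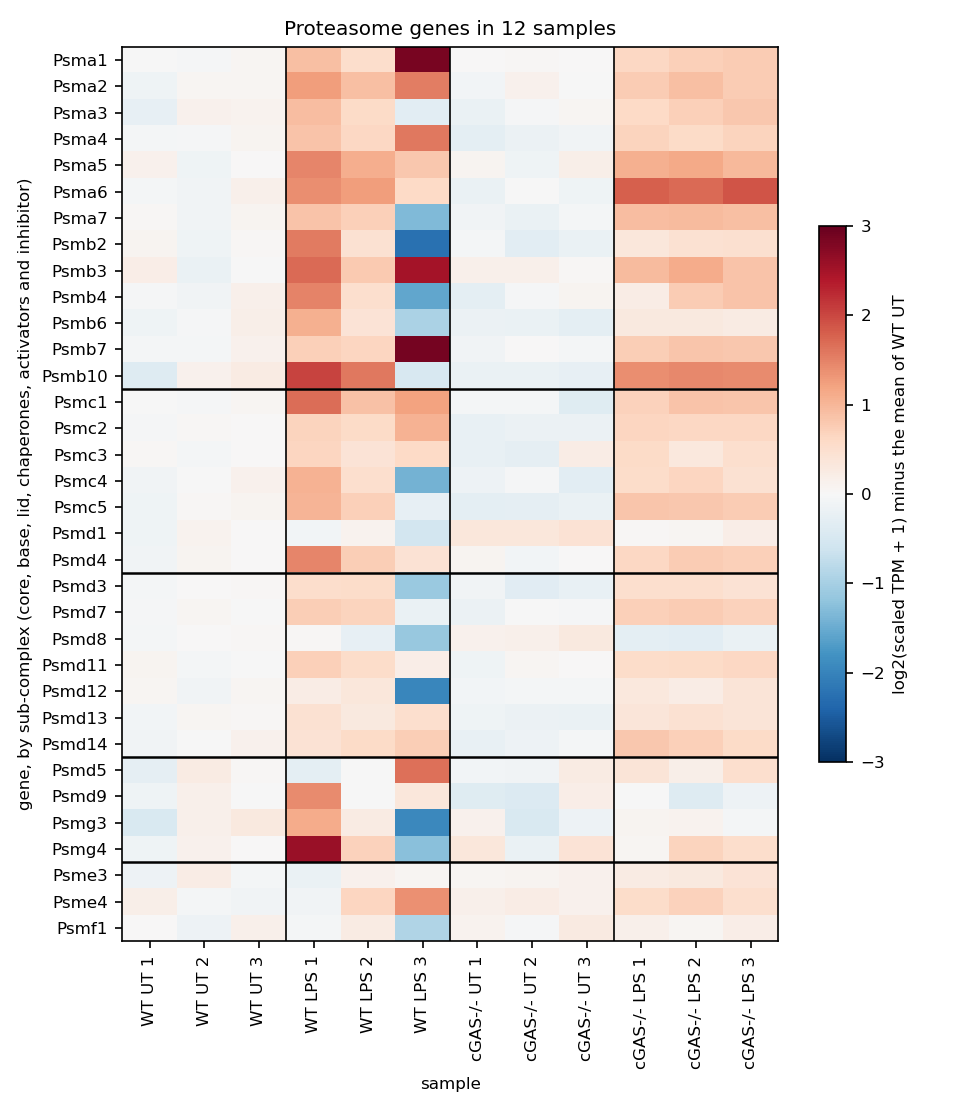
Heat map of log2(scaled TPM + 1) of the 34 proteasome genes (rows, grouped by sub-complex) in the 12 samples (columns), each relative to the gene's mean in WT UT. The LPS samples of both genotypes are mostly above the untreated ones, and the third WT LPS sample departs from its group in both directions, with 30 of the 34 genes under the mean of the other WT LPS samples in deposited TPM.

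LPS and cGAS-/- cells are described first, because these samples varied least. The median coefficient of variation of the 34 genes in deposited TPM was 5.95% in cGAS-/- LPS, 7.56% in cGAS-/- UT and 7.53% in WT UT, against 60.1% in WT LPS. For all genes tested it was 11.6%, 12.1%, 12.5% and 68.9% in the same groups.

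In cGAS-/- BMDMs, 12 of the 34 genes rose with LPS and 0 fell (limma on log2(scaled TPM + 1), Benjamini-Hochberg adjusted p under 0.05 over all genes tested), where 8.19% of all genes tested rose and 8% fell. The 12 were the core genes Psma2, Psma4, Psma5 and Psma6, the base ATPase genes Psmc1, Psmc2, Psmc3 and Psmc5, and the lid genes Psmd7, Psmd11, Psmd13 and Psmd14. The estimate lay above 0 for 32 of 34, against 49.8% of all genes, and the median log2 difference was 0.69, against 0.00 for all genes. None passed a log2 difference of 2, which together with the adjusted p is the threshold of the methods and which 4.02% of all genes passed. That fit shares 1 estimate of the spread over all 4 groups, the third WT LPS sample included. In the fit of the 6 cGAS-/- samples alone, 27 of 34 genes rose and 2 fell, where 25.6% of all genes rose and 23.8% fell.

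The same held without any scaling or model for most genes: the 3 LPS samples lay above the 3 UT samples in deposited TPM for 23 of the 34 genes, as for 17% of all genes, and below them for Psmd1 and Psmd8, as for 43.4% of all genes. The ratio of mean TPM with LPS to that without had a median of 1.35 over the 34 genes and ranged from 0.58 to 3.08. With no scaling the limma fit over 12 samples called 1 gene, Psma6, where 5.46% of all genes were called higher and 10.3% lower. On that scale the median log2 difference was 0.40 for the 34 genes and -0.22 for all genes.

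In WT BMDMs, 12 of the 34 genes rose with LPS and 0 fell, where 9.34% of all genes rose and 13% fell. These were the core genes Psma2, Psma4, Psma5, Psma6 and Psmb3, the base genes Psmc1, Psmc2, Psmc3 and Psmd4, and the lid genes Psmd11, Psmd13 and Psmd14. The median log2 difference was 0.49, against -0.04 for all genes, the estimate lay above 0 for 26 of 34, and 0 passed a log2 difference of 2, against 4.41% of all genes. Between the genotypes 10 of the called genes were shared, with Psmb3 and Psmd4 called in WT and Psmc5 and Psmd7 in cGAS-/-. The comparisons share the fit but no samples, and the difference between them is tested below.

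The WT values rest on the scaling and on the third WT LPS sample. The first WT LPS sample stood apart too in the genes read above 0, with 12787, against 12261 in the third and 15378 to 17573 in the others. The fits without the third sample therefore still rest on WT LPS samples that are not alike. In deposited TPM the third WT LPS sample stood at 0.0314 (Psmg3) to 2.08 (Psmb7) times the mean of the other WT LPS samples, with a median of 0.281 for the 34 genes and 0.345 for all genes tested. 15 of the 34 were under 0.25 times, as were 40.3% of all genes, while Psma1, Psmb3, Psmb7 and Psmd5 were above 1. Without that sample, 26 of the 34 genes rose and 0 fell in WT, where 18.5% of all genes rose and 17.9% fell, and 23 rose and 2 fell in cGAS-/-, where 18.2% rose and 16.5% fell. The 23 were all among the 26, and Psmb2, Psmb4 and Psmg4 were called in WT but not in cGAS-/-. There Psmb2 and Psmb4 narrowly missed the threshold (limma adjusted p = 0.0607 and 0.0573). The difference between LPS effects was not called for Psmb2, Psmb4 or Psmg4 in that fit. With all samples and no scaling, 1 gene (Psmb3) was called higher in WT, where 4.78% of all genes were called higher and 26% lower. On that scale the median log2 difference was negative, -0.20 for the 34 genes and -0.55 for all genes, so with all samples the rise of the WT genes is one relative to other genes. Without scaling and without the third WT LPS sample, 15 genes rose and 1, Psmd8, fell in WT, where 9.29% of all genes rose and 30.6% fell. The ratio of mean TPM with LPS to that without then had a median of 1.27, with 28 of 34 above 1, against 1.01 and 18 of 34 with all samples. Of the 12 genes called in WT, the estimate of 5 turned negative without scaling (Psmc2, Psmc3, Psmd11, Psmd13 and Psmd14) and that of 7 at a common total (these with Psma4 and Psmd4), against 0 of the 12 called in cGAS-/-. The median of all genes was -0.55 and -0.71 in WT under these settings, and all 12 genes lay above it under both. These settings move the genes of a sample and that median nearly alike. For genes called higher their place above it was therefore close to fixed, and it is no separate support. The 6 WT samples alone gave 1 call, Psma2, which rose, where 3.73% of all genes were called higher. With each of the 12 samples left out in turn, Psma5, Psma6, Psmc1 and Psmc2 rose in both genotypes every time. Leaving out the first or the second WT UT sample left 7 calls each in WT, where 6.55% and 6.58% of all genes were called higher. In cGAS-/- 6 calls were left without the first UT or the second LPS sample, and 7 without the second UT, the first LPS or the third LPS sample, where 5.96% to 6.29% of all genes were called higher.

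**Figure D2:**
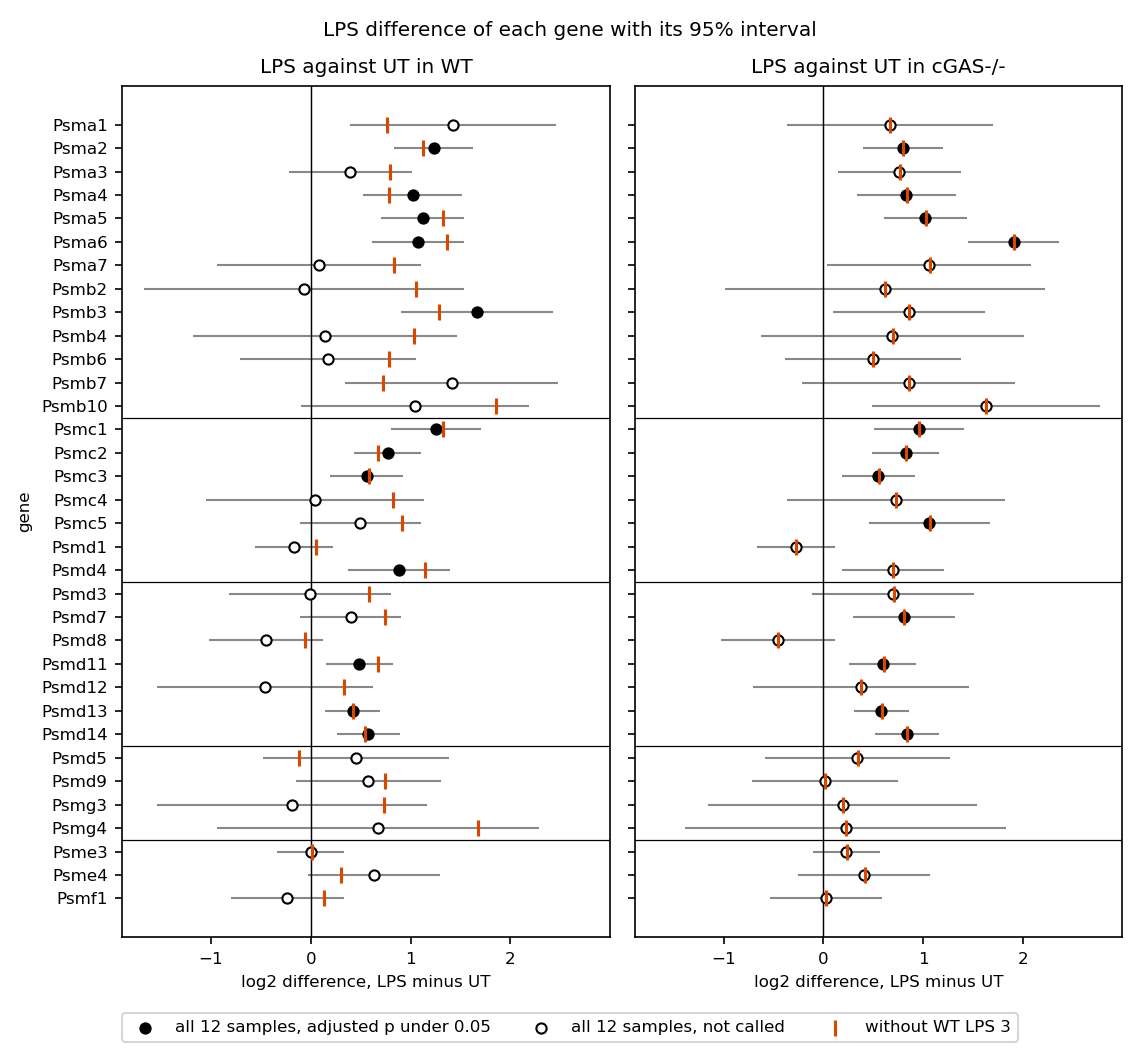
Log2 difference between LPS and UT samples (x axis, log2 scale) for each of the 34 genes in WT (left) and cGAS-/- (right), with the 95% interval of the fit over 12 samples. Filled circles have an adjusted p under 0.05, open circles do not, and orange ticks give the estimate without the third WT LPS sample. The circles are filled for 12 genes on each side, and in cGAS-/- the ticks lie on the circles, as for Psma6 at 1.91 in both fits.

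The core held the largest differences. Relative to the median of all genes, its median log2 difference with LPS was 1.08 in WT and 0.83 in cGAS-/-. In WT 5 of its 13 genes rose, and in cGAS-/- 4 rose, where 9.34% and 8.19% of all genes did. Without the third WT LPS sample all 13 rose in WT, and all but Psmb2 and Psmb4 in cGAS-/-. In that fit 18.5% and 18.2% of all genes rose.

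Psma6, an α subunit, had the largest difference of the 34 genes in cGAS-/-. It read 43.5, 50 and 46.7 TPM in cGAS-/- UT and 145, 134 and 153 TPM in cGAS-/- LPS, a ratio of means of 3.08. The LPS samples lay far above the untreated ones, with no overlap, and the log2 difference was 1.91 ± 0.21 (SE, adjusted p = 9.14e-05). In WT it read 50, 47.9 and 56.2 TPM untreated and 85.9, 110 and 26.7 TPM with LPS. The first and second LPS samples were above the UT samples and the third below, and the log2 difference was 1.08 ± 0.21 (SE, adjusted p = 0.00394).

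Psma2, another α subunit and the gene with the smallest p in WT, read 30.3, 34.7 and 33.8 TPM in WT UT and 50.8, 55.7 and 33.2 TPM in WT LPS. The third LPS sample lay within the UT range in deposited TPM and above it once scaled, and the log2 difference was 1.23 ± 0.18 (SE, adjusted p = 7.26e-04). In cGAS-/- it rose from 32.7 ± 2.69 to 46.5 ± 2.72 TPM (SD, n = 3), a log2 difference of 0.80 with adjusted p = 0.0112. Psma5, also of the α ring, read 38.1, 31.5 and 33.8 TPM in WT UT and 61.1, 66.9 and 20.7 TPM in WT LPS, with the third LPS sample below all UT samples. Its log2 difference was 1.12 ± 0.19 (SE, adjusted p = 0.00171) in WT and 1.02 in cGAS-/- (adjusted p = 0.00324). Psma5 has near-identical processed pseudogenes, among them Psma5-ps (98.63% identity over 952 bases), so the share of its reads counted elsewhere is uncertain, and the like holds for Psma3, Psma4, Psmb3, Psmc1 and Psmd11. Psmd1 and Psmg3 share 305 and 238 bases at 100% identity with the protein-coding entries Gm21972 and Gm26938, so it holds for them too.

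Psmb3, a non-catalytic β subunit, had the largest difference of the 34 genes in WT. It read 28.5, 21.1 and 23.6 TPM in WT UT and 51.1, 38.3 and 48.4 TPM in WT LPS, with no overlap, and the log2 difference was 1.66 ± 0.34 (SE, adjusted p = 0.00602). In cGAS-/- it read 26.5, 26.4 and 24.7 TPM untreated and 38.1, 42.4 and 35.6 TPM with LPS. Those samples did not overlap either, yet the fit over 12 samples gave 0.86 with adjusted p = 0.136, and the 6 samples alone gave 0.84 with adjusted p = 2.28e-04.

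The β2 pair was described for its roles. Psmb7, the constitutive β2 subunit with trypsin-like activity, read 57, 56.6 and 63 TPM in WT UT and 61.7, 82.3 and 150 TPM in WT LPS. There the third LPS sample was the highest of the 12, and the log2 difference was 1.41 ± 0.48 (SE, adjusted p = 0.0603). It was 0.72 (adjusted p = 1.71e-04) without that sample, 1.78 (adjusted p = 0.0247) without the first WT LPS sample and 1.80 (adjusted p = 0.0195) without the second. In cGAS-/- it read 55.6 ± 2.38 TPM untreated and 82 ± 2.81 TPM with LPS (SD, n = 3), with no overlap and a log2 difference of 0.85 (adjusted p = 0.318). The 6 samples alone gave adjusted p = 3.55e-05 for it. Psmb10, the inducible β2 subunit, read 14.8, 21.4 and 22.8 TPM in WT UT and 52.5, 53.9 and 4.6 TPM in WT LPS. Here the third LPS sample was the lowest of the 12, and the log2 difference was 1.04 ± 0.51 (SE, adjusted p = 0.176) with it and 1.85 (adjusted p = 4.59e-05) without it. In cGAS-/- Psmb10 read 16.3 ± 0.207 TPM untreated and 42.7 ± 0.638 TPM with LPS (SD, n = 3), a ratio of 2.62. The groups did not overlap, and the log2 difference of 1.63 ± 0.51 (SE) missed the threshold in the fit over 12 samples (adjusted p = 0.058) and passed it in the 6 samples alone (adjusted p = 1.16e-06), and without the first (0.0276) or the third WT LPS sample (3.82e-05).

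Within each sample the ratio of Psmb10 to Psmb7 needs no scaling, and only its change between samples is read. It was 0.307, 0.286 and 0.287 in cGAS-/- UT and 0.533, 0.514 and 0.516 in cGAS-/- LPS. In WT it was 0.26, 0.378 and 0.362 untreated and 0.852, 0.655 and 0.0308 with LPS. So the inducible subunit gained on the constitutive one in 5 of 6 LPS samples, and in the third WT LPS sample the ratio was the lowest of all 12. With 3 samples against 3 an exact permutation test cannot give a two-sided p under 0.10, and none was run.

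**Figure D3:**
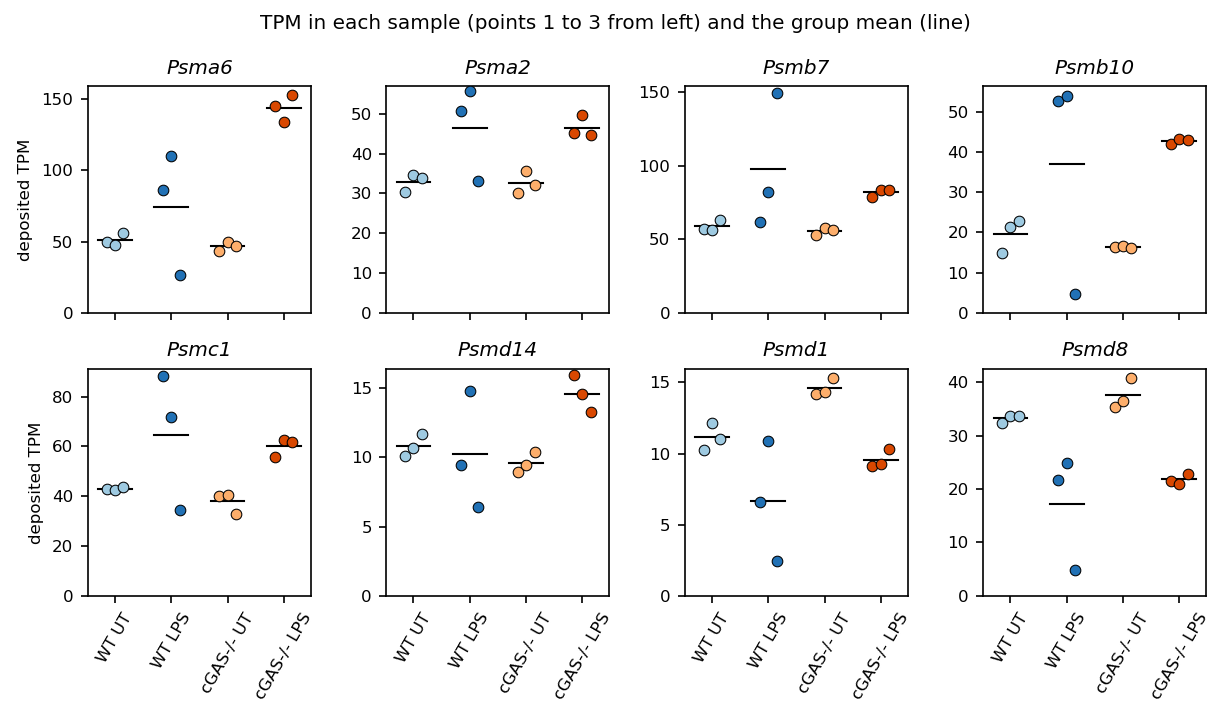
Deposited TPM (y axis, from 0) of 8 proteasome genes in the 12 samples, by group on the x axis, with the mean of each group as a line. In cGAS-/- cells the LPS samples lie above the UT samples for Psma6, Psma2, Psmb7, Psmb10, Psmc1 and Psmd14 and below them for Psmd1 and Psmd8. In WT LPS the third sample is far from the others for most genes.

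The base had smaller median differences than the core. Relative to the median of all genes, its median log2 difference with LPS was 0.60 in WT and 0.73 in cGAS-/-. In each genotype 4 of its 7 genes were called higher, where 9.34% of all genes were in WT and 8.19% in cGAS-/-. Without the third WT LPS sample all but Psmd1 rose in both genotypes, and Psmd1 fell in cGAS-/-. In that fit 18.5% of all genes rose in WT, and 18.2% rose and 16.5% fell in cGAS-/-. Psmc1, an ATPase, read 42.9, 42.4 and 43.7 TPM in WT UT and 88.4, 71.7 and 34.3 TPM in WT LPS. The first and second LPS samples were well above the UT samples and the third below them, and the log2 difference was 1.25 ± 0.20 (SE, adjusted p = 0.00139). In cGAS-/- it rose from 37.9 ± 4.25 to 60.1 ± 3.62 TPM (SD, n = 3; adjusted p = 0.00786). Psmc2, also an ATPase, read 26.6, 27.4 and 27.9 TPM in cGAS-/- UT and 40.6, 39.1 and 39.7 TPM in cGAS-/- LPS. The groups were tight and did not overlap, with a log2 difference of 0.82 ± 0.15 (SE, adjusted p = 0.00316).

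Psmd4, a ubiquitin receptor of the base, read 13.8, 15.7 and 14.7 TPM in WT UT and 27, 22.6 and 6.93 TPM in WT LPS. The third LPS sample was again below the UT samples, and the log2 difference was 0.88 ± 0.23 (SE, adjusted p = 0.0198). In cGAS-/- it read 14.5 ± 0.914 TPM untreated and 19.6 ± 0.886 TPM with LPS (SD, n = 3), with no overlap and a log2 difference of 0.70 (adjusted p = 0.068). That passed in the 6 samples alone (adjusted p = 3.05e-04), with a filter of 5 TPM (0.0497), and without the first (0.00429) or the third WT LPS sample (0.00665), while in WT Psmd4 lost its call without any 1 of the 3 UT samples (0.0538 to 0.0755).

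Psmd1, the large scaffold subunit of the base, was the exception. It read 14.2, 14.3 and 15.3 TPM in cGAS-/- UT and 9.11, 9.29 and 10.3 TPM in cGAS-/- LPS, all LPS samples below all UT samples. The log2 difference was -0.28 ± 0.18 (SE, adjusted p = 0.40) in the fit over 12 samples, -0.30 (adjusted p = 0.0114) in the 6 samples alone and -0.28 (adjusted p = 0.0415) without the third WT LPS sample. In WT it read 10.3, 12.2 and 11.1 TPM untreated and 6.62, 10.9 and 2.47 TPM with LPS, which overlap, with a log2 difference of -0.17 (adjusted p = 0.519).

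The lid differed between its members. Its median log2 difference relative to all genes was 0.44 in WT and 0.60 in cGAS-/-. Of its 7 genes 3 and 4 were called higher, where 9.34% and 8.19% of all genes were. Without the third WT LPS sample all but Psmd8 rose in both genotypes, and Psmd8 fell in cGAS-/-. In that fit 18.5% of all genes rose in WT, and 18.2% rose and 16.5% fell in cGAS-/-. Psmd14, the deubiquitinase that removes ubiquitin from substrates, read 8.91, 9.48 and 10.4 TPM in cGAS-/- UT and 15.9, 14.6 and 13.3 TPM in cGAS-/- LPS. The groups did not overlap, and the log2 difference was 0.84 ± 0.14 (SE, adjusted p = 0.00221). In WT it read 10.1, 10.7 and 11.7 TPM untreated and 9.46, 14.8 and 6.41 TPM with LPS. There the log2 difference was 0.58 ± 0.14 (SE, adjusted p = 0.0161) with scaling, -0.14 without it and -0.39 at a common total, where the median of all genes was -0.04, -0.55 and -0.71. The gene and that median move nearly alike between these settings, so its place above the median is no separate support. The call was also lost without the first (adjusted p = 0.0789) or the second WT UT sample (0.0674).

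Psmd8, a structural lid subunit, had a negative estimate in cGAS-/-, which was not called in the fit over 12 samples. It read 35.4, 36.5 and 40.7 TPM in cGAS-/- UT and 21.5, 21 and 22.8 TPM in cGAS-/- LPS, a ratio of 0.58. In WT it read 32.3, 33.7 and 33.7 TPM untreated and 21.7, 24.9 and 4.88 TPM with LPS, so in deposited TPM all LPS samples lay below all UT samples in both genotypes. In cGAS-/- 43.4% of all genes did so, and the share in WT was not computed. After scaling the groups overlapped in WT and still did not in cGAS-/-. The log2 difference in cGAS-/- was -0.46 ± 0.26 (SE, adjusted p = 0.32) in the fit over 12 samples, -0.48 (adjusted p = 0.00133) in the 6 samples alone and -0.46 (adjusted p = 0.00318) without the third WT LPS sample. In WT it was -0.45 (adjusted p = 0.242), and -0.06 (adjusted p = 0.684) without the third LPS sample.

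The chaperones and activators held no call in either genotype in the fit over 12 samples. The assembly chaperone genes had log2 differences between 0.01 and 0.34 in cGAS-/- and between -0.19 and 0.67 in WT. The upper limit in WT is Psmg4, which read 64.9, 23.9 and 2.07 TPM in WT LPS. Without the third WT LPS sample Psmg4 was called at 1.68 (limma adjusted p = 0.0177), where 18.5% of all genes rose. Psme3, the nuclear activator PA28γ, read 15.9, 16.1 and 16.9 TPM in cGAS-/- UT and 14.9, 15.3 and 16.7 TPM in cGAS-/- LPS, and 14, 18.4 and 14.5 against 8.52, 15.3 and 5.5 TPM in WT. In deposited TPM the groups overlapped, with a ratio of mean TPM of 0.959 in cGAS-/-. After scaling the 3 cGAS-/- LPS samples lay above the 3 UT samples, and the log2 differences were 0.23 in cGAS-/- and -0.00 in WT (95% intervals of -0.10 to 0.57 and -0.34 to 0.33). In the 6 cGAS-/- samples alone Psme3 was called at 0.21 (adjusted p = 0.0295) and Psme4 at 0.40 (adjusted p = 0.00639). Psme4, the activator PA200, had log2 differences of 0.41 in cGAS-/- (adjusted p = 0.49) and 0.64 in WT (adjusted p = 0.155). The WT value was 1.03 (adjusted p = 0.00508) without the first WT LPS sample and 0.31 (adjusted p = 0.26) without the third. Psmf1, the inhibitor PI31, had 0.02 in cGAS-/- and -0.23 in WT, with adjusted p = 0.982 and 0.539.

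The balance of the sub-complexes was then compared within each sample, as the difference between their mean log2(scaled TPM + 1). Its level has no meaning across genes, but its change between groups hardly depends on the scaling. It was not computed with another pseudocount, on which low genes depend. The lid median with LPS in cGAS-/-, relative to all genes, was 0.60, and 0.74 and 0.40 with pseudocounts of 0.1 and 5. Core minus lid was 0.96 to 1.05 in WT UT and 0.98 to 0.99 in cGAS-/- UT. With LPS it was 1.38 to 1.87 in WT and 1.37 to 1.47 in cGAS-/-. All 6 LPS samples, the third WT LPS sample included, lay above all 6 UT samples. The group means were 1.00 ± 0.05 and 1.68 ± 0.26 in WT and 0.99 ± 0.01 and 1.43 ± 0.06 in cGAS-/- (SD, n = 3). Without scaling they were 1.01 and 1.64 in WT and 1.00 and 1.43 in cGAS-/-.

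Core minus base moved the same way. It was 0.40 to 0.52 in WT UT and 0.43 to 0.48 in cGAS-/- UT, and 0.68 to 0.79 in WT LPS and 0.70 to 0.78 in cGAS-/- LPS, again with no overlap. The genotypes overlapped within each treatment for both measures. Both rest on means, on which genes far from the rest weigh. With LPS in cGAS-/- these were Psma6 (1.91) and Psmb10 (1.63) in the core, Psmd1 (-0.28) in the base and Psmd8 (-0.46) in the lid. The medians relative to all genes, which such genes move less, were 0.83, 0.73 and 0.60 for core, base and lid. The measures without those genes were not computed.

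**Figure D4:**
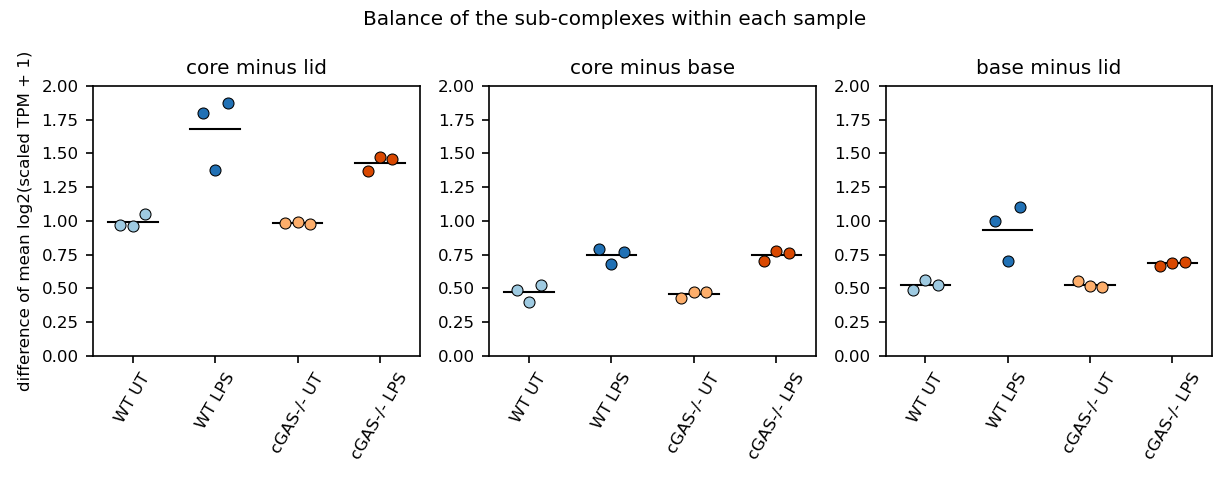
Difference of the mean log2(scaled TPM + 1) between sub-complexes in each sample (points) and its group mean (lines), for core minus lid, core minus base and base minus lid. In all panels the 6 LPS samples lie above the 6 UT samples, and for core minus lid they span 1.37 to 1.87 against 0.96 to 1.05.

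Genotype was compared at each treatment. In UT cells 0 of the 34 genes differed between cGAS-/- and WT by limma, where 1.94% of all genes did, and 0 had an unadjusted p under 0.05. The median log2 difference was -0.08 for the 34 genes and -0.02 for all genes, and the estimates ran from -0.25 to 0.37. The 95% intervals reached 0.28 to 1.61 to either side of the estimate, with a median of 0.61. They are those of the fit over 12 samples, whose spread is shared with the WT LPS samples, where the coefficient of variation of the members had a median of 60.1%, against 7.53% in WT UT and 7.56% in cGAS-/- UT. Psmd1 had the largest estimate, with 11.2 ± 0.953 TPM in WT and 14.6 ± 0.62 TPM in cGAS-/- (SD, n = 3). The 3 cGAS-/- samples were above the 3 WT samples, and the log2 difference was 0.37 ± 0.18 (SE, adjusted p = 0.661), or 0.40 (adjusted p = 0.0218) in those 6 samples alone, where 14% of all genes were called. In deposited TPM the cGAS-/- UT samples lay above the WT UT samples for 2 of the 34 genes and below them for 7. The share of all genes that did so was not computed. Psmd1 was also called without the third WT LPS sample (adjusted p = 0.0287, with 7.52% of all genes), which enters this comparison through the shared spread. The summed B cell, proliferation and neutrophil markers given above were also lower in cGAS-/- UT than in WT UT with no overlap, and of the 5 neutrophil markers tested Ltf and Ngp were called lower, Ngp by a log2 difference of -3.22 (adjusted p = 0.0253).

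In LPS cells 0 of 34 genes differed by limma, where 5.1% of all genes did, and 4 had an unadjusted p under 0.05. Without the third WT LPS sample 1 gene, Psma6, differed, where 16% of all genes did. Psma6 was also the 1 gene that differed without the first WT LPS sample, where 8.64% of all genes did. Without the second, Psma6 was higher in cGAS-/- and Psma2, Psmb3, Psmc1 and Psmd9 were lower, 5 of 34 genes where 22.1% of all genes differed. Psma7, an α subunit, had the largest estimate, 0.85 ± 0.46 (SE, adjusted p = 0.306). It read 36.9, 37.4 and 36.3 TPM in cGAS-/- LPS and 27.7, 35.4 and 2.96 TPM in WT LPS, and the estimate was 0.13 without the last of these. Psma6, named after its values were seen, read 134 to 153 TPM in cGAS-/- LPS and 26.7 to 110 TPM in WT LPS with no overlap. Its log2 difference was 0.72 ± 0.21 (SE, adjusted p = 0.0812), and 0.46 (adjusted p = 0.0193) without the third WT LPS sample.

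The interaction term, which sets the LPS effect in cGAS-/- against that in WT, was called for 0 of 34 genes, where 1.62% of all genes were called, and 1 had an unadjusted p under 0.05. That 1 was Psma6, at 0.83 ± 0.29 (SE, adjusted p = 0.263). Without the third WT LPS sample Psma6 was called at 0.55 (adjusted p = 0.0479), where 8.24% of all genes were called, and without the second WT LPS sample Psmb3 was called instead, in the other direction, where 7.79% of all genes were called. Psma7 had the largest estimate, 0.98 ± 0.65 (SE, adjusted p = 0.602), which was 0.24 without the third WT LPS sample. The median over the core was 0.28 relative to all genes with all samples and -0.22 without the third WT LPS sample, so it gives no direction for the core as a group. The half-widths of the 95% intervals had a median of 0.87 in the fit over 12 samples.

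Other genes of the pathway were taken from lists. Of 31 bound factors, assembly factors and other subunits, 12 were tested, and with LPS 0 rose and 1 fell in each genotype. These were Ube3c, a ubiquitin ligase bound to the proteasome, with a log2 difference of -0.74 (adjusted p = 0.0455) in WT, and Zfand2a, a stress-induced proteasome partner, with -1.26 (adjusted p = 0.00143) in cGAS-/-. Without the third WT LPS sample 4 rose and 0 fell in WT, and 4 rose and 1 fell in cGAS-/-, where 18.5% of all genes rose and 17.9% fell in WT and 18.2% and 16.5% did in cGAS-/-. Adrm1, a ubiquitin receptor, and Pomp, a chaperone of core assembly, were among those that rose in both, with Pomp at 1.18 in WT and 0.72 in cGAS-/- (adjusted p = 0.00279 and 0.0196). Ube3c was not called in WT there. Zfand2a read 18.1 to 20 TPM in cGAS-/- UT and 5.48 to 6.85 TPM in cGAS-/- LPS.

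Of 12 genes for ubiquitin supply and p97, 9 were tested. In WT the ubiquitin gene Ubb rose by 1.83 on the log2 scale (adjusted p = 0.0133). Without the third WT LPS sample it rose in both genotypes, by 1.23 in WT and 0.80 in cGAS-/- (adjusted p = 3.83e-05 and 2.46e-04). In cGAS-/- Vcp, the p97 ATPase that extracts proteins for degradation, rose by 0.64 (adjusted p = 0.0122) and its cofactor Nploc4 by 0.61 (adjusted p = 0.0318). With LPS, Vcp was higher in cGAS-/- than in WT by 0.68 (adjusted p = 0.0245), at 53.6 to 56.4 TPM against 14.7 to 44.6 TPM.

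Of 7 regulators of proteasome genes, 5 were tested. Nfe2l1, the transcription factor that restores proteasome subunit expression when proteasome activity falls short, read 10.5, 8.96 and 12.2 TPM in cGAS-/- UT and 22.9, 22.8 and 22.2 TPM in cGAS-/- LPS. The groups did not overlap, and the log2 difference was 1.33 ± 0.22 (SE, adjusted p = 0.0015). In WT it read 11.4, 12 and 9.83 TPM untreated and 11.3, 18.4 and 3.68 TPM with LPS, which overlap, with 0.48 (adjusted p = 0.143). Without the third WT LPS sample Nfe2l1 rose in WT too, by 0.78 (adjusted p = 0.00115), and was higher in cGAS-/- than in WT with LPS by 0.53 (adjusted p = 0.0218), while the difference between its LPS effects was not called. Of the 5 tested, 3 rose and 1 fell in WT without that sample, and 2 rose and 2 fell in cGAS-/-, against the same shares of all genes. Mafk, a small partner of that family, rose by 0.88 (adjusted p = 0.00292) in WT and was lower in cGAS-/- than in WT with LPS, by -0.82 (adjusted p = 0.0169). Without the third WT LPS sample the difference between LPS effects was called for Mafk (-0.82, adjusted p = 0.0123), Zfand2a (-1.03, adjusted p = 0.0066) and Vcp (0.69, adjusted p = 0.0293).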

How the data were processed

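The authors trimmed the reads with fastp, mapped them with STAR to GRCm39 and quantified them with kallisto, with versions not given in the sources used here. The deposited table holds 1 column for each of the 12 samples. Its values were taken as TPM that the authors averaged over the transcripts of a symbol, which was inferred from the values themselves, since the table is named as normalized counts. No column was left without a sample, and with read numbers unknown no counting interval could be given.

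Genes with at least 1 TPM in at least 3 samples, after rescaling to the mean total, were kept (9994). Samples were scaled by unweighted trimmed means of log ratios (30% of the ratios and 5% of the levels trimmed on each side). Limma 3.58.1 in R 4.3.3 was fitted to log2(TPM + 1) with a mean per group, all 12 samples and a variance trend, with Benjamini-Hochberg adjustment over all genes tested. The pseudocount shrinks the differences of genes near the filter. Calls were made at an adjusted p under 0.05.

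Named genes are, in each comparison, up to 3 called higher and 3 called lower with the smallest p and the gene with the largest difference, and always Psmb10, Psmb7, Psmd14, Psmd4, Psme3, Psme4 and Psmf1. Psmd1 and Psmd8 with LPS, and Psma6 between genotypes, were named after their values were seen. Some genes of the pathway lists are not reported here. The genes, lists and rules were chosen with earlier results of these data known. Promoters were read with pysam 0.24.0 from GRCm39 with GENCODE annotation, and near-identical copies were found with blastn 2.17.0 (at least 95% identity over 200 bases).

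Same-numbered samples of different groups did not deviate together (correlations of -0.03 to 0.05 over 18 pairs), so the replicate numbers were not used for pairing. The alternatives were other scalings, pseudocounts and filters, the compared groups alone, a replicate block, sample weights, no variance trend and each sample left out. No scaling with the third WT LPS sample left out, and the pathway genes without that sample, were chosen after the data were seen.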

Additional observations from a re-analysis of the deposited data

How the results depend on the processing

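With LPS in WT, 1 of the 34 genes was called without scaling, 0 at a common total, 5 after quantile normalization and 1 with the compared groups alone, where 30.8%, 36.2%, 23.7% and 8.33% of all genes were called. In cGAS-/- these were 1, 0, 7 and 29, where 15.7%, 14.7%, 18.8% and 49.4% of all genes were, with 29 also under sample weights (47.8%) and 22 without scaling and without the third WT LPS sample (36%), of which 20 rose and 2 fell. The count of 0 at a common total is by limma. The other pseudocounts, filters and no variance trend gave 11 to 12 calls in WT and 10 to 13 in cGAS-/-, where 8.59% to 27.4% of all genes were called in WT and 6.07% to 23.4% in cGAS-/-. Leaving out a sample gave 7 to 26 in WT, where 14.4% to 36.4% of all genes were called, and 6 to 25 in cGAS-/- (11.3% to 34.7%). Between genotypes in UT cells, 1 gene was called with the compared groups alone (14% of all genes) and 3 under sample weights (15%), and 0 to 1 with a sample left out (0.575% to 7.52%). Under sample weights Psmd1 was higher in cGAS-/- and Psmc2 and Psmc5 were lower. With LPS, 2 were called without scaling and without the third WT LPS sample (9.87%), and 0 to 5 with a sample left out (1.88% to 22.1%), and for the difference of LPS effects 0 to 1 (0.586% to 8.24%). The replicate block gave 10 calls with LPS in each genotype (19.9% of all genes in WT, 14.5% in cGAS-/-) and 0 in the other comparisons, but the samples share only a number.

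Relative to all genes, the core median with LPS in WT was 0.74 at a common total, 0.57 after quantile normalization and 0.72 under sample weights. The base there was 0.26 and 0.22 under the first pair, and the lid was -0.082 after quantile normalization. In cGAS-/- the median of all 34 was 0.62 without scaling, 0.61 at a common total, 0.54 after quantile normalization, 0.74 and 0.57 with pseudocounts of 0.1 and 5, 0.63 with a filter of 5 TPM and 0.63 without scaling and without the third WT LPS sample. In the same order, leaving out the pseudocount of 0.1, the core was 0.76, 0.74, 0.62, 0.73, 0.76 and 0.76, and 0.77 to 0.87 with a sample left out. The base was 0.66, 0.65, 0.60, 0.77, 0.58, 0.65 and 0.67, with 0.70 under sample weights and 0.68 to 0.79 with a sample left out. The lid was 0.54 after quantile normalization, 0.74 and 0.40 with the pseudocounts, 0.57 with the filter of 5 TPM and 0.59 to 0.63 with a sample left out. The core stayed above the lid in each of these settings.

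Between genotypes in UT cells, leaving out a sample gave core medians of -0.13 to 0.0044, base medians of -0.18 to -0.083 and lid medians of -0.12 to -0.037. With LPS it gave -0.24 to 0.50 for the core. For the difference of LPS effects the core was 0.54 at a common total, 0.033 under sample weights, -0.17 without scaling and without the third WT LPS sample and -0.22 to 0.56 with a sample left out, and the base was 0.21 at a common total and 0.17 after quantile normalization.

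Of the 12 genes called in WT, 5 turned sign without scaling, 7 at a common total and 0 after quantile normalization, and of the 22 not called 11, 11 and 6 did. The 12 lay above the median of all genes under all 3 of these settings. For genes called higher this was close to fixed without scaling and at a common total, which move the genes of a sample nearly alike. In cGAS-/- signs turned for 0 of 12 each time and for 5, 5 and 1 of 22. Among the genes named by rule, signs turned for Psmd14 in WT (-0.14 without scaling, -0.39 at a common total) and Psmd4 in WT (-0.11 at a common total). Of those not called, they turned in WT for Psme3 (0.051 with the compared groups alone, 0.030 under sample weights, -0.085 to 0.11 with a sample left out), Psme4 (-0.0036 without scaling, -0.23 at a common total, -0.036 without scaling and without the third WT LPS sample) and Psmf1 (0.15 under sample weights, -0.47 to 0.13 with a sample left out). In cGAS-/- they turned for Psme3 (-0.058, -0.13 and -0.058 in the order given for Psme4) and Psmf1 (-0.21, -0.27 and -0.21, and -0.053 to 0.099 with a sample left out). Except where a scaling, a filter or fewer samples is the setting itself, the cause was not tested. Read depth is unknown, so what it limits could not be computed.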

Other observations

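Psme2b, a retrocopy of the gene for the β subunit of the interferon-induced activator PA28, is not one of the 34 genes and was chosen after its values were seen. It read 174, 186 and 189 TPM in WT UT and 870, 686 and 998 TPM in WT LPS, and 165, 138 and 165 TPM in cGAS-/- UT and 631, 630 and 570 TPM in cGAS-/- LPS. The LPS samples lay far above the UT samples in both genotypes, the third WT LPS sample included. The log2 difference was 2.99 ± 0.38 (SE, adjusted p = 3.02e-04 by limma) in WT and 2.27 ± 0.38 (SE, adjusted p = 0.00188) in cGAS-/-. Its transcript has 99.37% identity with Psme2 over 95% of its length, and Psme2 was not analysed here, so which of the pair the values belong to is uncertain.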
